A study of Mus musculus with 20 samples.

Results

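The 44 genes described here are Hox genes and selected transcription factors of the primitive streak and posterior epiblast that a mouse expression array measured. They comprised 33 Hox genes and 11 others, Cdx1, Cdx2, Cdx4, Mixl1, Eomes, Mesp1, Evx1, Gsc, Tbx6, Msgn1 and Nkx1-2, out of 18193 genes on the array. They were chosen by gene symbol alone, from a fixed set of symbols, so other streak genes on the array, such as Lhx1, Mesp2 and Sp8, were not among them. Probe sets assigned to several genes were left out. Where a gene had several probe sets, the one that was brightest on average across all 20 arrays stood for it. The 44 genes had 63 probe sets between them, and 14 genes had more than 1.

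The study drove germ cell transcription factors in cultured cells, to find the genes that each of them alters. All 5 lines derived from male C57BL/6;129 embryonic stem cells, BVSCR26rtTA, that carry the reporters Blimp1-mVenus and stella-ECFP and the doxycycline-dependent activator Rosa26-rtTA. By their labels, the BP14A line carried inducible transgenes for the 3 factors Blimp1 (gene Prdm1), Prdm14 and Tfap2c, the B line for Blimp1, the P14 line for Prdm14 and the A line for Tfap2c, while the parental line carried none of these. Each line was measured at 2 stages with 2 arrays per group. One stage was day 1, when aggregates started with 2000 cells per well had been cultured for 24 h in a medium called GK15 with 1.5 µg/ml of doxycycline, and the other was the starting population of epiblast-like cells (EpiLCs), differentiated for 36 h. Doxycycline was given to the parental aggregates as well, so a difference between day 1 and EpiLCs combines time, aggregation, medium and doxycycline, which cannot be told apart. Each line was 1 clone, so a factor and its clone cannot be told apart either. The series' design calls the duplicates biological.

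Hox genes encode homeodomain transcription factors that give cells their position along the head-to-tail axis, and they lie in clusters whose order follows the order in which they come on. In the embryo the first Hox genes come on in the posterior primitive streak, where Wnt and Nodal signals induce Mixl1, Eomes and Mesp1, and where Cdx factors act upstream of the more posterior Hox genes. Primordial germ cells arise from epiblast next to the streak. Blimp1 is known as a repressor of the somatic programme, Hox genes included, in those cells.

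Values are given as deposited, on a log scale whose base was taken as 2 from its range of 0 to 13.83, and the median value of an array lay between 4.59 and 4.86. A gene was tested where its highest group mean was at least 3.95, the 40th percentile of all values, and it was called where the limma adjusted p was under 0.05 and the difference was at least 1 on the log2 scale. Every adjusted p below comes from limma with Benjamini-Hochberg adjustment over the 14011 genes tested, except where probe sets are compared. The 8 epiblast markers were all above 4 on average. Their mean level at day 1 was 9.81 to 9.87 in the BP14A line, 10.73 to 10.90 in the B line, 10.53 to 10.70 in the P14 line and 11.16 to 11.34 in the A line, against 11.23 to 11.28 in the parental line. The genes of the 3 factors were read at their brightest probe sets, and the sources used here do not say whether those probe sets detect the transgenes. At day 1 Tfap2c gave 11.55 and 11.58 in the BP14A line, 9.38 and 9.81 in the B line, 10.70 and 10.91 in the P14 line, and 5.80 and 6.08 in the A line, against 6.38 and 6.29 in the parental line. Prdm1 gave 8.63 and 8.71 in the BP14A line, 6.25 and 6.47 in the B line, 7.23 and 7.39 in the P14 line, and 4.84 and 5.18 in the A line, against 4.90 and 5.01 in the parental line. Prdm14 gave 3.40 and 4.67 in the BP14A line, 3.95 and 4.05 in the B line, 3.21 and 3.80 in the P14 line, and 4.06 and 3.55 in the A line, against 3.59 and 3.67 in the parental line. Neither array of the line labelled A lay above the parental arrays for Tfap2c, and the P14 and parental arrays overlapped for Prdm14, so every difference given for these lines rests on their labels. Every sample is labelled male, yet the Y-linked gene Eif2s3y averaged 1.68 in B EpiLCs and 4.61 in P14 EpiLCs, against 9.48 in parental EpiLCs. The part of the Eif2s3y and epiblast marker differences in the results was not tested. In aggregates of many cells, fewer cells expressing a gene and less RNA per cell cannot be told apart.

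Most of these genes gave little signal in any line at either stage. For 27 of the 44 (61.4%) all 10 group means were under 4, against 4338 of the 18193 genes on the array (23.8%). These included 21 of the 33 Hox genes and 6 of the other 11: Cdx1, Cdx2 and Cdx4, which encode the caudal homeodomain factors, Evx1, a homeobox gene of the posterior streak, Gsc, a homeobox gene of the anterior streak and organiser, and Msgn1, which drives presomitic mesoderm. The limit of 4 ran through a closely spaced group of genes. Just inside it were Msgn1, whose highest group mean was 3.995, Cdx2 with 3.95 and Hoxb4 with 3.925. Just outside it were Mixl1 and Hoxa13, both with 4.04, and Hoxa10 with 4.06. A limit of 5 would have taken in 36 of the 44 genes. Of the 880 single values, 33 were listed at 0, and they belonged to 7 genes, with 11 each in Hoxa7 and Hoxc9. The median spread within a pair of arrays was an SD of 0.44 for the genes near background and 0.26 for the others.

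**Figure D1:**
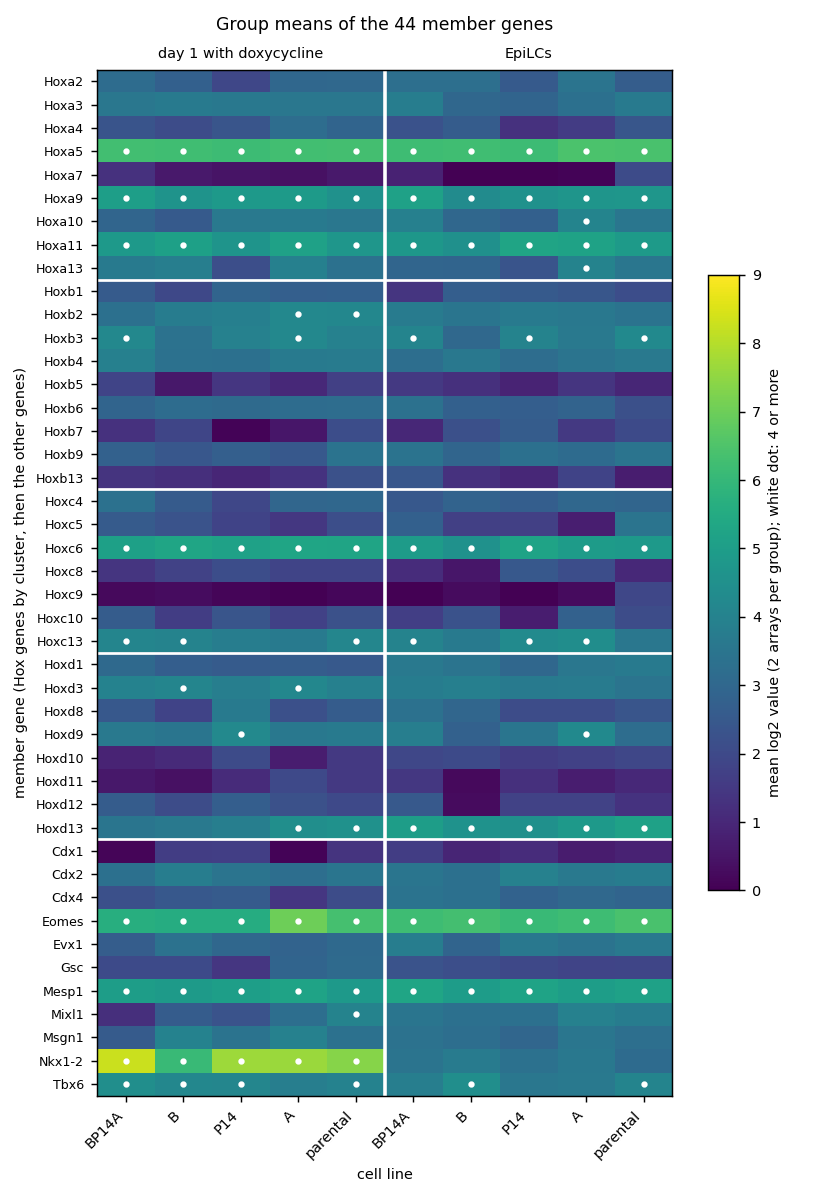
Mean log2 value of the 44 genes in each of the 10 groups of 2 arrays, with day 1 on the left and EpiLCs on the right and the Hox genes ordered by cluster. White dots mark group means of 4 or more; 27 genes have none, and Nkx1-2 at day 1 is the brightest row.

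Most of the calls among the members were those of Nkx1-2. Of the 44 genes 19 passed the filter, and the other 25 could not be called. Of the 19, 4 were called in at least 1 of 20 comparisons. The share of all tested genes called in at least 1 comparison was not counted, and the shares for each comparison are given below. Nkx1-2 was called in 9 comparisons, Hoxd13 in 2, Mixl1 in 2 and Msgn1 in 1, which makes 14 calls in all. Of the 15 tested genes that were never called, 12 had no adjusted p under 0.05 either. For 3 genes whose values differed between lines or stages, the 250 bases before the RefSeq start (assembly GRCm38.p6) are shown, because they are the regulatory sequence nearest to the changes described below. Capitals mark each match, on either strand, of GCCNNNGGC (an AP-2 motif), CCAAT or TATAA. Nkx1-2 is chr7:132599638-132599887 on the minus strand, Eomes chr9:118477939-118478188 on the plus strand and Hoxd13 chr2:74667975-74668224 on the plus strand.
Nkx1-2: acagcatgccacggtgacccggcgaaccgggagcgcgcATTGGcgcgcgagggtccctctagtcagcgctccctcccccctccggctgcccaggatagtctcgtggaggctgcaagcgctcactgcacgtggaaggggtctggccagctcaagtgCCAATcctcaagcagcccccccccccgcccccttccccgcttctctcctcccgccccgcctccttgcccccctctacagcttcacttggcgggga
Eomes: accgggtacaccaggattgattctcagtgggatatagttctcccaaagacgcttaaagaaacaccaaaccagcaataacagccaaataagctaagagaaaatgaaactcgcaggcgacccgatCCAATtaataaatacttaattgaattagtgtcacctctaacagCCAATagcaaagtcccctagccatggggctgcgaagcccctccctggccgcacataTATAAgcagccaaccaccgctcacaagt
Hoxd13: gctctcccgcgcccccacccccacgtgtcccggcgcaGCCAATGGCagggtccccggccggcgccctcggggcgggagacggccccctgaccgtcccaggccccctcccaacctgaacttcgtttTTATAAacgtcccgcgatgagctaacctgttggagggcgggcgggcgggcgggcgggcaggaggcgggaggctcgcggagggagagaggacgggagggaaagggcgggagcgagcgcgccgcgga
The Nkx1-2 window held CCAAT at 2 places and none of the motifs GAAAGT (Blimp1), GTCTCTA (part of a Prdm14 motif), GCCNNNGGC (AP-2), CTTTGA (TCF and LEF) or GGTGTGA (T-box). The Eomes window held CCAAT at 2 places and TATAA at 1, and none of those 5 motifs. The Hoxd13 window held 1 GCCNNNGGC, which overlaps a CCAAT, and 2 overlapping matches of TATAA, one on each strand. Among 32851 promoter windows of the same length, GAAAGT was found in 12.3%, GTCTCTA in 2.9%, GCCNNNGGC in 13.7%, CTTTGA in 13.8%, GGTGTGA in 3.3%, CCAAT in 33.8% and TATAA in 22.8%. These matches describe the letters of the windows and were not tested as sites. The window of Msgn1 held GAAAGT at 2 places and CTTTGA at 2.

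Nkx1-2, a homeobox gene of the caudal epiblast that surrounds the node and streak, was near background in EpiLCs and bright at day 1 in all 5 lines. It lies on chromosome 7 between 132596239 and 132599637 (GRCm38.p6). At day 1 its 2 arrays gave 8.18 and 8.38 in the BP14A line, 5.77 and 6.44 in the B line, 7.60 and 7.75 in the P14 line, 7.52 and 7.75 in the A line, and 7.63 and 7.09 in the parental line. In EpiLCs the arrays gave 3.60 and 3.32 in the BP14A line, 3.85 and 3.65 in the B line, 3.11 and 3.60 in the P14 line, 3.87 and 3.31 in the A line, and 3.11 and 3.20 in the parental line. Every day 1 array lay above every EpiLC array, the BP14A arrays were the highest at day 1 and the B arrays the lowest, and the P14, A and parental arrays overlapped between 7.09 and 7.75.

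Against its own EpiLCs, Nkx1-2 rose in all 5 lines. The log2 difference was 4.82 in the BP14A line (SE 0.26, adjusted p = 4.33e-08), 2.36 in the B line (1.53e-05), 4.32 in the P14 line (1.68e-07), 4.05 in the A line (4.12e-07) and 4.21 in the parental line (3.65e-07). With the 3 probe sets of the gene averaged, these differences were 2.00 in the BP14A line, 1.72 in the P14 line, 1.61 in the A line and 1.90 in the parental line, and the B difference was 0.47 (adjusted p = 0.187) and no longer called. The rise in the B line was smaller than that in the parental line by 1.85 (log2 -1.85 ± 0.37 SE, n = 2 arrays in each of 4 groups, adjusted p = 0.00958). At day 1 itself Nkx1-2 was lower in the B line than in the parental line, with a log2 difference of -1.26 ± 0.26 (SE, adjusted p = 0.00603). That last call was lost when the first B array was left out (-0.92, adjusted p = 0.0624) and when the first parental array was left out (-0.99, adjusted p = 0.066).

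Between the factor lines at day 1, Nkx1-2 was higher in the BP14A line than in the B line by 2.18 (adjusted p = 5.03e-05) and higher in the P14 line than in the B line by 1.57 (adjusted p = 0.000616). Against the parental line the BP14A difference was 0.92 (adjusted p = 0.0189), below the size limit for a call, which it passed without the first BP14A array (1.02) or the first parental array (1.19). The P14 difference was 0.32 (adjusted p = 0.444), the A difference 0.28 (adjusted p = 0.948), and that between BP14A and P14 0.61 (adjusted p = 0.223). The order of the day 1 levels was therefore BP14A, P14, A, parental and B, of which P14, A and parental were within their spread of each other. The 2 other probe sets of Nkx1-2 were dim and did not show the rise from EpiLCs in every line. The group means of 1422049_at ran from 3.72 to 4.72 and those of 1426177_a_at from 1.90 to 3.69, so the size of the rise rests on 1422050_at. The B line was the lowest at day 1 at these probe sets too, with a mean of 3.99 against 4.29 to 4.72 in the other lines at 1422049_at, and of 1.90 against 3.18 to 3.69 at 1426177_a_at.

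**Figure D2:**
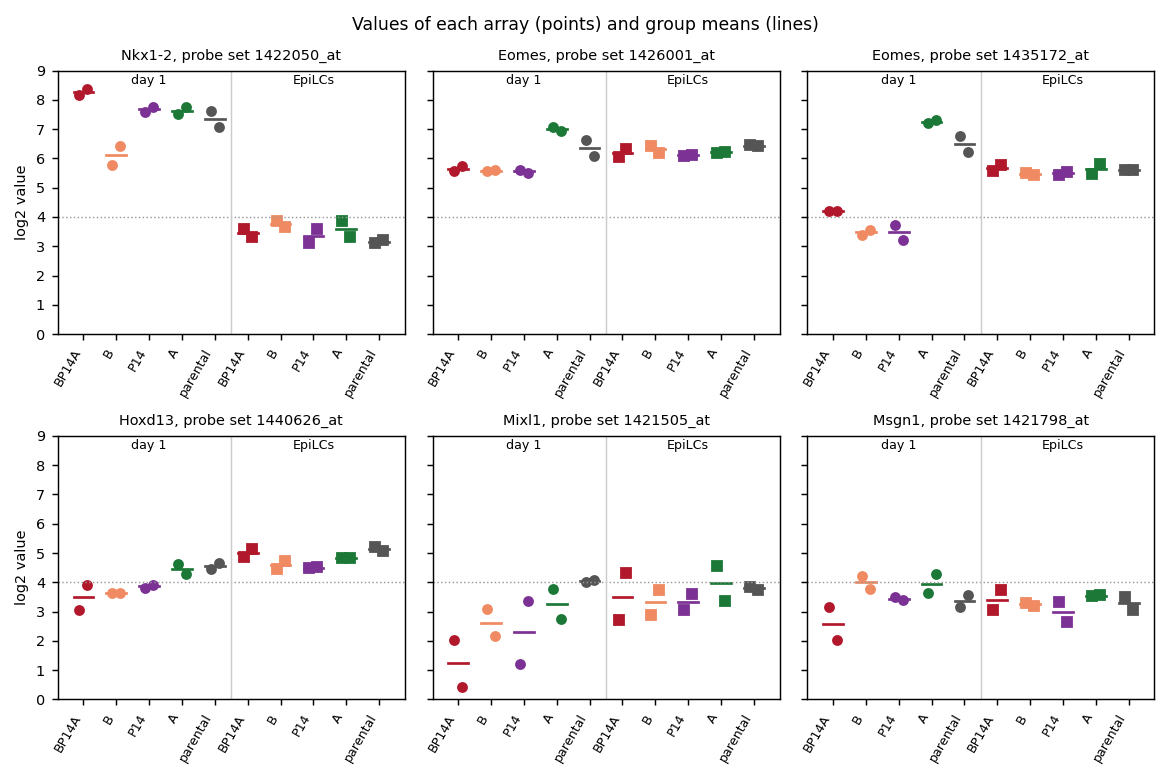
Log2 value of each array (points) and group mean (lines) for Nkx1-2, Eomes at both of its probe sets, Hoxd13, Mixl1 and Msgn1, with day 1 left and EpiLCs right in each panel and a dotted line at 4. Nkx1-2 is above 5.7 on every day 1 array and below 3.9 on every EpiLC array, while Eomes at 1435172_at is low at day 1 in the BP14A, B and P14 lines.

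Eomes, a T-box gene that streak cells need to form mesoderm and endoderm, lies on chromosome 9 between 118478186 and 118486132, and both of its probe sets gave signal. At the brighter one, 1426001_at, the day 1 arrays gave 5.56 and 5.75 in the BP14A line, 5.57 and 5.60 in the B line, 5.61 and 5.52 in the P14 line, 7.07 and 6.93 in the A line, and 6.62 and 6.07 in the parental line. The BP14A, B and P14 arrays all lay below the parental arrays, and the A arrays above them. The EpiLC arrays of all 5 lines lay between 6.06 and 6.45. Against the parental line at day 1 the log2 difference was -0.69 in the BP14A line (SE 0.15, adjusted p = 0.0044), -0.76 in the B line (0.00485), -0.78 in the P14 line (0.00241) and 0.66 in the A line (0.277), and none was called. Without the second parental array the B difference (-1.04) and the P14 difference (-1.06) were large enough for a call.

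At the other probe set of Eomes, 1435172_at, the differences from the parental line at day 1 ran the same way and were larger. It was singled out after its values were seen, and its adjusted p-values come from a limma fit of the 30351 probe sets that passed the filter. At day 1 its arrays gave 4.20 and 4.21 in the BP14A line, 3.39 and 3.56 in the B line, 3.74 and 3.23 in the P14 line, 7.20 and 7.30 in the A line, and 6.75 and 6.21 in the parental line. The EpiLC arrays gave 5.58 and 5.76 in the BP14A line, 5.50 and 5.42 in the B line, 5.45 and 5.54 in the P14 line, 5.47 and 5.82 in the A line, and 5.61 on both parental arrays. The EpiLC arrays of all lines lay between 5.42 and 5.82, and at day 1 the lines with Blimp1 or Prdm14 transgenes lay below all EpiLC arrays and the other lines above them.

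Against the parental line at day 1, this probe set of Eomes fell in the BP14A line by 2.28 (SE 0.19, adjusted p = 4.38e-06), in the B line by 3.01 (2.07e-06) and in the P14 line by 3.00 (6.90e-07). In the A line the difference was 0.77 (adjusted p = 0.383). Against its own EpiLCs it fell in the BP14A line by 1.47, in the B line by 1.99 and in the P14 line by 2.01, and it rose in the A line by 1.61. In the parental line the stage difference was 0.87 (adjusted p = 0.0049), under the size limit. The stage differences of the 3 lines that fell were lower than that of the parental line, with a log2 difference of -2.34 for BP14A (adjusted p = 0.000126), -2.86 for B (0.000156) and -2.88 for P14 (4.67e-05). The factor-line comparisons share the parental arrays.

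Mixl1, a homeobox gene of streak mesoderm and endoderm on chromosome 1 between 180693043 and 180697034, was close to background throughout. At day 1 it gave 2.03 and 0.43 in the BP14A line, 3.08 and 2.16 in the B line, 1.21 and 3.37 in the P14 line, 3.77 and 2.76 in the A line, and 4.01 and 4.07 in the parental line. In EpiLCs it gave 2.70 and 4.32 in the BP14A line, 2.87 and 3.75 in the B line, 3.06 and 3.60 in the P14 line, 4.57 and 3.36 in the A line, and 3.85 and 3.73 in the parental line. The parental day 1 arrays were the highest of that stage, but most pairs differed by more than 0.8 within a group. Mixl1 passed the filter only through its means of 4.04 in the parental line at day 1 and 3.965 in A EpiLCs. Its call against the parental line therefore includes a group that let Mixl1 through the filter. It fell in the BP14A line, with a log2 difference of -2.81 ± 0.78 from the parental line (SE, adjusted p = 0.0176) and of -2.28 from BP14A EpiLCs (adjusted p = 0.0338). With all values under 4 set to 4, these differences became -0.04 and -0.16. The call against the parental line was lost without the second BP14A array (-2.01) or either parental array (-2.84 and -2.78), and the call against EpiLCs without the second BP14A array of either stage (-1.48 at day 1 and -1.47 in EpiLCs).

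Msgn1 was called between BP14A and B at day 1 although all its group means were under 4. It passed the filter only through its day 1 means of 3.995 in the B line and 3.955 in the A line. The call therefore includes a group that let Msgn1 through the filter. Its arrays gave 3.14 and 2.04 in the BP14A line against 4.21 and 3.78 in the B line, a log2 difference of -1.41 ± 0.36 (SE, adjusted p = 0.0114). With values under 4 set to 4 the difference became -0.11 (adjusted p = 0.395), and the call was lost without the second BP14A array (-0.86) or the first B array (-1.19). Mesp1, which marks the earliest heart-forming mesoderm, kept to group means of 4.88 to 5.31, and Tbx6, which turns posterior precursors towards mesoderm, to 3.57 to 4.44, and neither was called in any comparison. Cdx2, which also specifies trophectoderm, passed the filter only through its mean of 3.95 in P14 EpiLCs. Its group means lay between 3.24 and 3.95, and it was called in no comparison.

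Among the Hox genes, 11 of the 12 tested were never called. The share of all tested genes that were never called was not counted. In single comparisons 0% to 10.6% of all tested genes were called, so the count of 11 is not read as few or many. Counted by cluster, 4 of 9 Hoxa genes (chromosome 6, 52162417 to 52260880), 7 of 9 Hoxb genes (chromosome 11, 96194316 to 96368254), 5 of 7 Hoxc genes (chromosome 15, 102921131 to 103036856) and 5 of 8 Hoxd genes (chromosome 2, 74668225 to 74765142) were near background. Counted by position within the clusters, 4 of the 7 genes of groups 1 to 3, 10 of the 12 of groups 4 to 8 and 7 of the 14 of groups 9 to 13 were near background. The 2 central genes above background were Hoxa5 and Hoxc6.

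Hoxd13, the last gene of its cluster, known for its part in digits and the urogenital tract, was the Hox gene that was called. It lies on chromosome 2 between 74668225 and 74671603. At day 1 it gave 3.07 and 3.90 in the BP14A line, 3.63 and 3.64 in the B line, 3.81 and 3.92 in the P14 line, 4.64 and 4.28 in the A line, and 4.47 and 4.67 in the parental line. In EpiLCs it gave 4.87 and 5.14 in the BP14A line, 4.47 and 4.73 in the B line, 4.50 and 4.51 in the P14 line, 4.83 on both A arrays, and 5.22 and 5.08 in the parental line. The day 1 arrays of the BP14A, B and P14 lines were all under 4, below every A and parental array and below every EpiLC array.

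Hoxd13 fell in the BP14A line, with a log2 difference of -1.52 from its own EpiLCs (SE 0.21, adjusted p = 0.000107) and of -1.09 from the parental line at day 1 (adjusted p = 0.0022). Its stage differences in the other lines were also negative and were not called. They were -0.965 in the B line (adjusted p = 0.00293), -0.64 in P14 (0.035), -0.37 in A (0.219) and -0.58 in parental (0.0538). The BP14A stage difference was lower than the parental one by a log2 difference of -0.94 (adjusted p = 0.0489), not called. Against the parental line the B difference was -0.94 (adjusted p = 0.0106) and the P14 difference -0.71 (adjusted p = 0.0312), both under the size limit, which the B difference passed without the first parental array (-1.04). The BP14A call against the parental line was lost without the first BP14A array (-0.67) and without the second parental array (-0.99). The second probe set of Hoxd13 stayed near background, and with values under 4 set to 4 the BP14A difference from the parental line was -0.57, too small for a call. With both probe sets averaged the BP14A stage difference was -0.41 (adjusted p = 0.434).

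The other Hox genes with a group mean of 4 or more were called in no comparison. Hoxa5, a gene of lung development, had group means of 6.17 to 6.45 and single values of 6.07 to 6.46. That signal came from 1443803_x_at, a class of probe set that can share probes with other sequences, and the second probe set of Hoxa5 had no group mean above 3.62. Hoxc6 ran from 4.55 to 5.29, Hoxa11, a gene of the forearm and kidney, from 4.52 to 5.25, and Hoxa9, known from blood progenitors, from 4.34 to 5.15. Hoxc13, a gene of hair follicles, ran from 3.59 to 4.41, Hoxb3 from 3.06 to 4.28, Hoxd9 from 2.80 to 4.27, Hoxb2 from 3.33 to 4.20 and Hoxd3 from 3.48 to 4.17. Hoxa10 had a range of 2.55 to 4.06 and Hoxa13 of 2.15 to 4.04. The ranges of some were wide, with large errors. The largest Hoxa13 difference, between P14 and B at day 1, was -1.71 ± 1.16 (SE, adjusted p = 0.314), and that of Hoxa10, in the same comparison, was 1.10 ± 0.59 (adjusted p = 0.195). Hoxc6 differed between day 1 and EpiLCs of the B line by 0.74 (adjusted p = 0.0202), the only adjusted p under 0.05 among these 11 Hox genes in 20 comparisons.

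**Figure D3:**
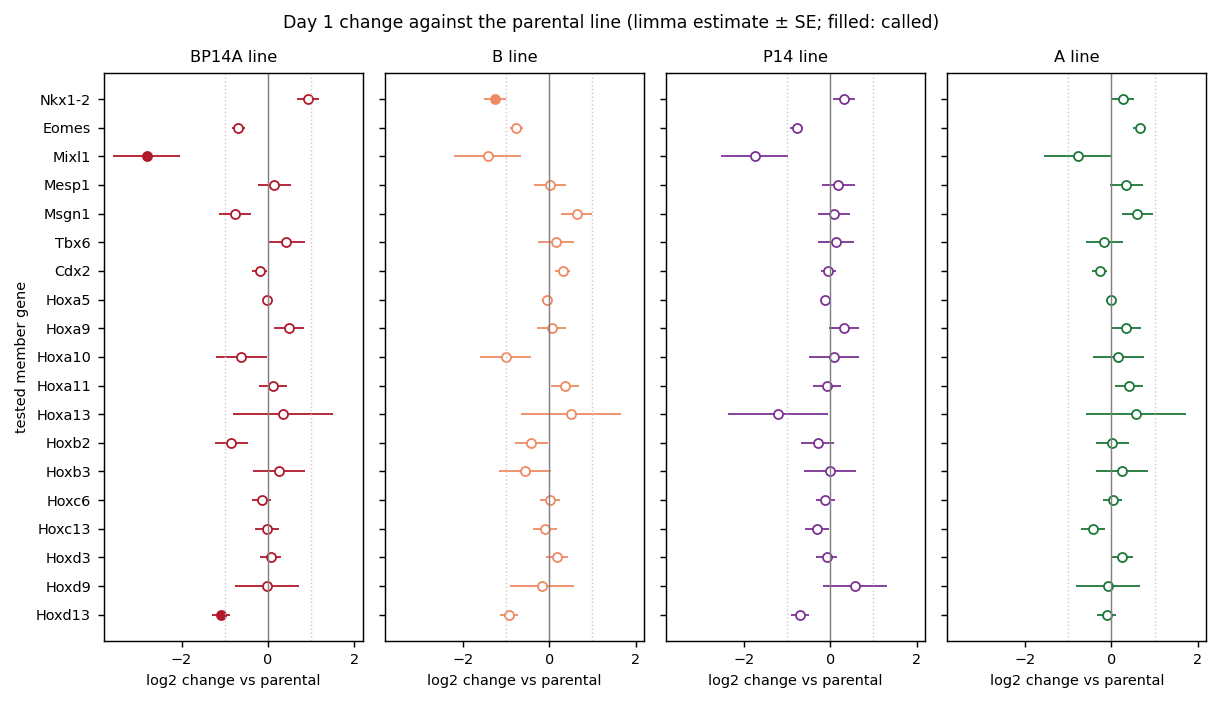
Log2 difference from the parental line at day 1 (limma estimate and SE) of the 19 tested members in the BP14A, B, P14 and A lines, with filled points for called genes and dotted lines at a difference of 1 in size. Filled points are Mixl1 and Hoxd13 in the BP14A line and Nkx1-2 in the B line, and the A line has none.

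These calls stand beside the share of all tested genes called in the same comparison. Against the parental line at day 1, 6.62% of genes were called in the BP14A line with 2 members (Hoxd13 and Mixl1, both lower), and 2.60% in the B line with 1 member (Nkx1-2, lower). In the P14 line 5.38% were called with 0 members, of which 3 had an unadjusted limma p under 0.05 (34.2% of all tested genes), and in the A line 0.0285% with 0 members and 1 such p (6.62% of all tested genes). Against own EpiLCs the shares were 10.6% in the BP14A line with 3 members, 9.72% in the B line, 8.06% in the P14 line, 6.12% in the A line and 6.59% in the parental line, with Nkx1-2 as the 1 member in each of those 4 lines. For the difference between a line's stage change and that of the parental line the shares were 6.94% for BP14A with 0 members, 2.40% for B with 1, 4.55% for P14 with 0 and 0% for A with 0. Unadjusted limma p-values under 0.05 were reached there by 3 members for BP14A (30.5% of all tested genes), 1 for P14 (23.9%) and 2 for A (4.65%).

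In EpiLCs against parental EpiLCs, 0.0143% of genes were called in the BP14A line, 0.0785% in the B line, 0.0357% in the P14 line and 0.0285% in the A line, and no member was called. Unadjusted limma p-values under 0.05 were reached by 0 members in the BP14A line (7.47% of all tested genes), 3 in the B line (10.8%), 3 in the P14 line (5.85%) and 1 in the A line (7.70%). Between factor lines at day 1, 6.47% of genes were called between BP14A and B with 2 members, 1.05% between BP14A and P14 with 0 members and 2 unadjusted limma p-values under 0.05 (19.1% of all tested genes), and 6.54% between P14 and B with 1 member. With 19 of the 44 members tested, 0 to 3 members were called in a comparison, and no count was tested against these shares.

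At day 1 several signalling genes of the streak were lower, and a few were higher, in the BP14A, B and P14 lines than in the parental line. A list of 28 streak signalling and patterning genes had 26 on the array and 21 tested (T and Tcf7 had no probe set listed under those symbols alone). At day 1 against the parental line, 3 were called higher and 5 lower in the BP14A line, 4 higher and 7 lower in the B line, 3 higher and 5 lower in the P14 line, and none in the A line. The list's median log2 difference was -0.26 in the BP14A line, -0.16 in the B line, 0.04 in the P14 line and 0.03 in the A line, while the medians over all tested genes lay between -0.04 and 0.03. Against own EpiLCs, 6 genes were higher and 4 lower in the BP14A line, 4 and 5 in the B line, 4 and 5 in the P14 line, 5 and 4 in the A line, and 5 and 2 in the parental line.

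Wnt8a, a Wnt ligand of the early streak, was lower than in the parental line by 2.88 in the BP14A line (adjusted p = 0.000585), by 2.37 in the B line (0.00483) and by 3.67 in the P14 line (0.000116). From EpiLCs to day 1 its mean went from 2.99 to 3.27 in the BP14A line and from 3.745 to 3.775 in the B line. It went from 3.905 to 2.48 in the P14 line and from 3.315 to 6.145 in the parental line. Wnt5b, another Wnt ligand, was lower than in the parental line by 2.62 in the BP14A line, by 2.03 in the B line and by 2.48 in the P14 line. Lef1, a nuclear effector of Wnt signalling, was higher than in the parental line by 2.02 in the BP14A line, by 1.63 in the B line and by 2.18 in the P14 line. Aldh1a2, which makes retinoic acid, was higher than in the parental line by 2.63 in the BP14A line, 3.38 in the B line and 2.02 in the P14 line. Its day 1 means in the parental line (1.935) and the P14 line (3.95) were both under 4. They were 4.56 in the BP14A line and 5.315 in the B line. Nodal, the ligand that patterns the streak, was lower than in the parental line by 1.65 in the BP14A line, by 2.88 in the B line and by 1.84 in the P14 line. From EpiLCs to day 1 its mean went from 8.895 to 8.72 in the BP14A line and from 9.29 to 7.49 in the B line. It went from 8.805 to 8.53 in the P14 line and from 8.985 to 10.365 in the parental line. In the B line Fgf8 was lower than in the parental line by 2.71. Its B means were under 4 at both stages, with 2.065 in EpiLCs and 3.105 at day 1. Tdgf1, the Nodal co-receptor, was lower in the B line by 6.26, with a mean of 5.87 against 12.13 in the parental line. In B EpiLCs the mean of Tdgf1 was 12.435. In the parental line, Fgf8 rose between EpiLCs and day 1 by 3.72, Sp8 by 3.69, Wnt8a by 2.83 and Rspo3 by 2.17, in the same cells in which Nkx1-2 was the 1 member called. Mean Fgf8, Sp8 and Rspo3 were also higher at day 1 than in EpiLCs in the BP14A, B, P14 and A lines. Mean Rspo3 went from 2.26 to 5.945 in BP14A, 1.345 to 4.535 in B, 1.80 to 4.96 in P14 and 2.73 to 5.225 in A. Mean Wnt8a went from 2.915 to 6.17 in the A line.

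**Figure D4:**
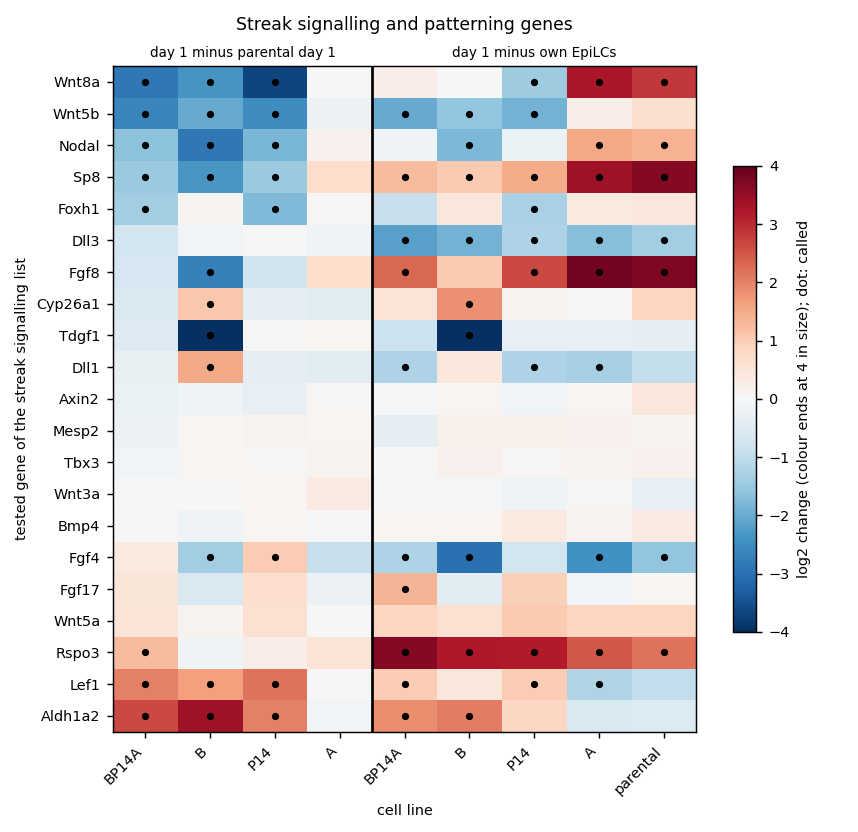
Log2 difference of the 21 tested streak signalling and patterning genes in the BP14A, B, P14 and A lines against the parental line at day 1 (left) and in all 5 lines against their own EpiLCs (right), with dots on called genes. Wnt8a, Wnt5b, Nodal and Sp8 carry dots for lower values in the BP14A, B and P14 lines and none in the A line.

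Some partners and regulators of Hox genes were called at day 1 against the parental line. The share of all tested genes called there was 6.62% in the BP14A line, 2.60% in the B line, 5.38% in the P14 line and 0.0285% in the A line. The counts below were not tested against these shares. Of 7 tested Hox cofactors, Meis2 was lower than in the parental line by 1.01 in the BP14A line and by 1.08 in the P14 line. Pbx2 was lower by 1.04 in the P14 line, and none was called in the B or A lines. From EpiLCs to day 1 mean Meis2 went from 4.62 to 4.46 in BP14A, 4.31 to 4.385 in P14 and 4.71 to 5.465 in parental cells. Mean Pbx2 went from 8.72 to 8.61 in P14 and 8.73 to 9.645 in parental cells. Between these stages 2 cofactors were called higher at day 1 in the B line, 2 in the A line, 1 in the parental line and 0 in the others. Of 16 Polycomb and trithorax regulators, Jarid2, a cofactor of the Polycomb methyltransferase, was higher than in the parental line by 1.03 in the BP14A line and by 1.04 in the P14 line. Kdm6b, a demethylase of the Polycomb mark, was lower than in the parental line by 1.28 in the BP14A line. No gene of that list was called between day 1 and EpiLCs in any line.

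Markers of other cell types that such cultures could hold had low mean levels at day 1 except for the fibroblast list, although single markers were bright. The mean level of 8 trophectoderm markers was 4.58 to 4.61 in the BP14A line, 4.35 to 4.37 in the B line, 4.12 to 4.28 in the P14 line, 3.98 to 4.07 in the A line and 4.09 to 4.29 in the parental line, and 2 of the 8 were near background in all groups. The mean of 10 later mesoderm markers was 3.89 to 4.03 in the BP14A line, 3.71 to 3.78 in the B line, 4.49 to 4.60 in the P14 line, 3.78 to 4.09 in the A line and 3.65 to 4.01 in the parental line, with 4 of the 10 near background. The mean of 6 definitive endoderm markers was 3.99 to 4.08 in the BP14A line, 4.35 to 4.50 in the B line, 4.04 in the P14 line, 4.23 to 4.60 in the A line and 3.99 to 4.09 in the parental line, and 1 of the 6 was near background. The mean of 7 fibroblast or feeder markers was 5.06 to 5.17 in the BP14A line, 5.82 to 6.02 in the B line, 5.37 to 5.42 in the P14 line, 5.52 to 5.80 in the A line and 5.49 to 5.75 in the parental line. Tagln, a smooth muscle and fibroblast gene, had day 1 means of 8.88 to 10.26 over the 5 lines. The markers called at day 1 against the parental line in the BP14A line were Tcf15 and Tead4 (higher) and Foxa2, Dcn and Thy1 (lower), and in the P14 line Tcf15 and Tead4 (higher) and Foxa2 and Thy1 (lower), while none was called in the B and A lines. Tcf15, a gene of somites and of primed epiblast, averaged 8.73 in the BP14A line and 10.18 in the P14 line, against 6.37 in the parental line. Thy1 averaged 4.03 in the BP14A line and 4.44 in the P14 line, against 7.07 in the parental line. Of the epiblast markers, Sox2 was called higher in the BP14A, B and P14 lines, Dnmt3b and Pou3f1 lower in the BP14A and P14 lines, Otx2 lower in the BP14A and B lines and Zic2 lower in the BP14A line. Their part in the differences above was not tested.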

How the data were processed

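Total RNA of 20 samples, 2 in each of 10 groups, was labelled by the one-cycle biotin protocol for Affymetrix arrays, per the labels. The authors deposited 1 table of log2-like values per probe set; its normalization was not stated in the sources used, and the log2 base was inferred from the range of the deposited values. Probe sets were named from GEO's platform annotation (34945 of 45037 had 1 gene, 932 several and 9160 none listed, with 64 control probe sets left out). Each gene was taken at its brightest probe set, and all 44 members matched RefSeq by Entrez ID.

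Genes with a highest group mean of at least 3.95 were fitted with limma 3.58.1 in R 4.3.3, with 1 mean per group over all 20 arrays, and 20 contrasts were adjusted by Benjamini-Hochberg each over 14011 genes. With 2 arrays per group, the number of arrays limits the precision. The procedure was tested on simulated data. Same-numbered replicates did not deviate together (median correlation 0.02 over 45 pairs of groups), so no block was used. Promoters came from a RefSeq table that held 28 of the 44 members; homeodomains were not analysed here. Named were all members called in a contrast or with a group mean of 4 or more, and, of the other lists, some of the 4 largest called changes per contrast, with those genes' called values in the other lines, and the called cell type markers of day 1 against the parental line (markers were added, as was Tagln, after their values were seen). The members, lists and limits were chosen with earlier results of these data known. Tables were made with pandas 2.3.3 (Python 3.11.15).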

Additional observations from a re-analysis of the deposited data

Results flagged for a closer look

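Nkx1-2 changed between EpiLCs and day 1 by a different amount in the B line than in the parental line, with a difference of -1.85 on the log2 scale in limma's test of that difference. At its probe set 1435172_at, Eomes also changed between stages differently from the parental line, by -2.34 in the BP14A line, -2.86 in the B line and -2.88 in the P14 line. At 1426001_at, the probe set that stood for the gene, these differences were -0.45, -0.65 and -0.46, and none was called. In the A line the stage difference at 1435172_at was 1.61, opposite in sign to those of these 3 lines. The difference between the A line and each of them was not tested.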

How the results depend on the processing

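With 2 arrays per group and most members close to background, the counts of calls are small. Against the parental line at day 1 there were 3 member calls, and 0 when only the compared groups were fitted, 0 when limma tested against a difference of 0.5, 1 with a floor of 4 and 5 with all probe sets of a gene averaged; leaving out 1 array gave 2 to 4. For the difference in stage change there was 1 call, and 0 with only the compared groups, 0 in the test against 0.5 and 4 with averaged probe sets; leaving out 1 array gave 1 to 2, with 2 without the second BP14A day 1 array or the second parental EpiLC array. The other counts stayed within 1.5 times under every alternative run: 7 calls against own EpiLCs, 0 between EpiLCs of the lines, 3 between factor lines, and 27 genes near background (20 to 36). At probe set 1422049_at the stage difference of Nkx1-2 in the B line reversed to -0.055 (limma adjusted p = 0.919). At 1426177_a_at the B mean was also lower at day 1 (1.905) than in EpiLCs (2.79), both under 4. The cause was not tested. With the replicate number as a block the counts were 3, 7, 1, 0 and 3, as without it, so the pairing changed no count; the correlations of same-numbered deviations ran from -0.07 to 0.20. Another background correction and the slide as a block could not be run on these values. Brightness over background limits what can be said of the 25 members that the filter left out. Fitted without the filter, 2 of them were called, with group means all under 4: Hoxd8 in P14 at day 1 against P14 EpiLCs (1.58, limma adjusted p = 0.0197) and against B (1.85, limma adjusted p = 0.0105), and Hoxd12 in B at day 1 against B EpiLCs (1.84, limma adjusted p = 0.0236).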

Other observations

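Probe sets outside the 44 genes that lie in the same clusters were mostly dim too. The antisense transcript Hoxb5os had a group mean of 5.10 at day 1 and 4.34 in EpiLCs of the BP14A line, and of 4.64 at day 1 and 3.89 in EpiLCs of the parental line. Of 2 probe sets that the annotation assigns to both Hoxd4 and Hoxd3, one had group means of 4.35 to 5.08 and the other was under 4 throughout. The antisense transcripts Hoxd3os1, Evx1os and Hoxa11os were under 3 in every group.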
